A study of Mus musculus with 4 samples.

Results

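The ATP-binding cassette (ABC) transporters are a family of proteins that spend ATP to move drugs, lipids, peptides and organic anions across membranes. The genes described here were all those whose symbol starts with Abc, a letter from a to g and a number, leaving out pseudogenes. They came to 50 of the 31053 genes in the feature list. A UMI, the tag that marks a single captured RNA molecule, was counted at least once in a cell for 45 of them. Abca12, Abca15, Abca16, Abcb5 and Abcb11 had no UMI in any cell.

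The cells were brain vascular-associated cells (BVACs), taken from wild-type male C57BL/6 mice 12 to 14 weeks old with antibody-coated microbeads and collagenase II, and read as 10x Genomics Chromium 3′ libraries. In chronic social defeat (CSD), a mouse lived for 14 days in the cage of an aggressive CD-1 mouse, behind a perforated partition that was lifted for 5 minutes a day. Home cage (HC) controls lived for 14 days in pairs in a new cage, behind the same kind of partition at all times. The cage mate of an HC mouse was, by the study's methods, a CD-1 mouse as well. Each condition had 2 libraries, CSD 1 and CSD 2 against HC 1 and HC 2, and each library was a pool of 4 mice, so the 16 mice gave n = 2 per condition and differences between mice within a pool are not seen.

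In the brain, the best known ABC proteins are efflux pumps in the membrane of the endothelial cell (EC) that faces the blood, where they return drugs and toxins to the circulation and form part of the blood-brain barrier. Parts of subfamilies A and G export cholesterol and phospholipid, which glial cells load onto lipoproteins. Subfamily D works in peroxisomes and lysosomes, part of subfamily B in mitochondria, and subfamilies E and F have no membrane spans and act in translation. Abcc8 and Abcc9 carry nothing: they are the sulfonylurea receptors that regulate ATP-sensitive potassium channels.

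A library held 27297599 to 30361474 UMIs, and 14415 barcodes passed as cells. CSD 2 stood apart, with 32.6% of its UMIs in cells against 51.8% to 56.8% in the others. Some values that turn on it are also given without it or as a range over fits that leave out libraries. Cells were assigned to classes from marker genes that include no ABC gene, and 12215 were assigned. Each class carried its own markers: the 10 EC markers summed to between 20626 and 24960 counts per 1000000 UMIs (CPM) in EC, and the 8 pericyte markers to between 22490 and 36469 CPM in pericytes. The classes with at least 10 cells in every library were EC (4856 cells), microglia (4230), choroid plexus cells (1541), pericytes (419), astrocytes (416), smooth muscle cells (SMC, 312), T cells (104) and ependymal cells (62), and, within EC, capillary and arterial cells. The ependymal gate was the least clean, with 31 of its 62 cells at the limit allowed for markers of another class. All levels below are CPM of a class within a library; a 3′ library tags each molecule once, so the values were not divided by transcript length. Classes are ranked below among the 8 tested main classes alone. Differences between classes are log2 values scaled by TMM (trimmed mean of M-values, which sets libraries by the bulk of their genes), which need not follow the CPM: between EC and choroid plexus cells this scaling moved the median of all genes by -0.79, from 0.97 with library totals only to 0.18, and calls that ended with library totals only are named. The level in barcodes of at most 100 UMIs, which hold free RNA rather than a cell, is given as the background.

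Promoters are shown to place Abcb1a, the second highest member in EC, and the leading genes of pericytes (Abcc9), of microglia and astrocytes (Abca1), and of choroid plexus cells (Abca4). Each window runs from 250 bases before to 50 after the RefSeq start (GRCm38.p6), 5′ to 3′ on the strand of the gene. Capitals mark the GC box GGGCGG or the TATA motif TATAAA, searched on both strands.
Abcb1a, chr5:8566841-8567140, plus strand: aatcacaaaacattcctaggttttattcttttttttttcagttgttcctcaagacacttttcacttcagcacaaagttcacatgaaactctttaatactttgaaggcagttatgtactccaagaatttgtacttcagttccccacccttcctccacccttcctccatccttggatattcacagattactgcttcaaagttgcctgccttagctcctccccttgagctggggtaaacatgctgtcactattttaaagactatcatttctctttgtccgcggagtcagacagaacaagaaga
Abcc9, chr6:142702225-142702524, minus strand: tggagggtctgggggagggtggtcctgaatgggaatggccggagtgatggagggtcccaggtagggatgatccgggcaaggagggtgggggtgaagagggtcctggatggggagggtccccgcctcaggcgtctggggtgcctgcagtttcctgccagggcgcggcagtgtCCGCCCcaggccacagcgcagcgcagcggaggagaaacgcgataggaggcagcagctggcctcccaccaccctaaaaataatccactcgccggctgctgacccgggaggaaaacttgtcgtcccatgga
Abca1, chr4:53159846-53160145, minus strand: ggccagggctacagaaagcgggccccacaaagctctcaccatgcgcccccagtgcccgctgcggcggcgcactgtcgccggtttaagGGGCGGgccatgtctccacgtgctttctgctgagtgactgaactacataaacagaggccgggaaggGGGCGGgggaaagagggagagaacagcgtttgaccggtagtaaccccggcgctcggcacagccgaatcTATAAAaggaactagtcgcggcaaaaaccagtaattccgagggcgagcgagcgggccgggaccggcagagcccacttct
Abca4, chr3:122044210-122044509, plus strand: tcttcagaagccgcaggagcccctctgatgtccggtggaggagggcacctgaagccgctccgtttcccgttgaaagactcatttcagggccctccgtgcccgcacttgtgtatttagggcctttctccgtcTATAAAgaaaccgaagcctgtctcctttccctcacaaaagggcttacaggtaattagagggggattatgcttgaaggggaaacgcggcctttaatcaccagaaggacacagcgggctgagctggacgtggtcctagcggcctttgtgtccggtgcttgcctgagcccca

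The Abcb1a window had a GC content of 40.3%, and the Abcc9, Abca1 and Abca4 windows had 65.7%, 62.7% and 56.3%. The median over all 32851 windows of this length was 52.7%. Abcb1a held neither motif, Abcc9 held 1 GC box, Abca1 held 2 GC boxes and a TATA motif 29 bases before its start, and Abca4 held a TATA motif 119 bases before its start. A GC box was present in 35.7% of all windows and a TATA motif in 13.6%. In GENCODE M21 (GRCm38) the Abcb1a gene spans chr5:8660077-8748575, so its annotated start there lies far downstream of the RefSeq window. The sequence at that GENCODE start is not shown, so the GC content and the lack of motifs hold for the RefSeq start alone. The genes of Abcc9 (chr6:142587862-142702315), Abca1 (chr4:53030787-53159895) and Abca4 (chr3:122044443-122180123) start inside or beside their windows. Abcg2 spans chr6:58584523-58695676 and Abcc4 spans chr14:118482692-118706219.

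The first question was which cells carry which transporter. Of the tested main classes, EC gave the largest share of their RNA to ABC genes. The whole family summed to 3258 ± 153 CPM in EC (SD, n = 4 libraries), 1753 ± 291 in pericytes, 1052 ± 150 in astrocytes, 956 ± 60.3 in microglia, 637 ± 79.6 in ependymal cells, 542 ± 18.1 in choroid plexus cells, 419 ± 138 in T cells and 356 ± 33.9 in SMC. In EC a pair of pumps made up most of the sum: Abcg2 and Abcb1a together gave between 76.4% and 77.3% of the ABC UMIs in each library. Pericytes were led by Abcc9, microglia and astrocytes by Abca1, and choroid plexus cells by Abca4.

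Of the 4 tested genes of drug and organic anion efflux, 3 (Abcg2, Abcb1a and Abcc4) were higher in EC than the mean of the other classes, where 33.8% of all genes tested were. In microglia and astrocytes 2 were higher (41% and 23.9% of all genes) and in choroid plexus cells and pericytes 1 (38.7% and 18%). Lower were 2 each in choroid plexus cells, SMC and T cells, and 1 in microglia. The shares of all genes lower are given with the whole family below. Abcg2, also called BCRP, is an efflux pump for drugs and urate. Its level in EC was 1386 and 1333 CPM in CSD 1 and CSD 2, and 1361 and 1426 CPM in HC 1 and HC 2. The 4 libraries differed little and overlapped between conditions, with a mean of 1376 ± 39.7 CPM, against a free RNA level of 87.9 ± 22.8 CPM. The next class, pericytes, had 43.2, 75.9, 79.2 and 74.6 CPM in CSD 1, CSD 2, HC 1 and HC 2. Every EC library was above every other class. The log2 difference between EC and pericytes was 4.42 (SE 0.21; edgeR quasi-likelihood test, adjusted p = 1.4e-22), and 34.3% of all genes tested differed between this pair of classes.

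Abcb1a encodes P-glycoprotein, the pump that keeps many medicines out of the brain. Its level in EC was 1049 CPM in CSD 1, 1343 in CSD 2, 1102 in HC 1 and 999.6 in HC 2, a mean of 1124 ± 152 CPM. CSD 2 was the highest library and the free RNA mean was 86.9 CPM. Astrocytes came next with 25.4 to 51.6 CPM, and the log2 difference between EC and astrocytes was 4.97 (SE 0.28; edgeR, adjusted p = 6.7e-21; 50.5% of all genes tested differed between the pair). Astrocytes, T cells and pericytes did not differ from each other beyond their spread: the log2 difference was 0.39 (SE 0.70; edgeR, adjusted p = 0.70) between astrocytes and T cells, -0.76 (SE 0.58; edgeR, adjusted p = 0.37) for pericytes minus astrocytes and -0.36 (SE 0.80; edgeR, adjusted p = 0.78) for pericytes minus T cells. Choroid plexus cells had the lowest mean of the tested main classes, 1.27 ± 0.55 CPM. Of all Abcb1a UMIs in assigned cells, 98.4% were in EC. This share holds for the cells captured here, on beads carrying an antibody to the endothelial marker CD31, and not for the brain. Its close paralog Abcb1b was low in EC. Of the tested main classes, its mean was highest in T cells, at 38.2 ± 20.0 CPM on 9 UMIs. The T cell libraries ranged from 13.7 to 56.9 CPM, around microglia at 16.1 to 30.6 CPM on 255 UMIs, so the order of these classes is uncertain. Border-associated macrophages, which were too few to test, had a mean of 85.6 CPM on 13 UMIs. Reads shared by such paralogs may have been split or dropped in counting.

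Abcc4 (MRP4) exports organic anions and cyclic nucleotides. It was at 212, 269, 172 and 170.3 CPM in the EC of CSD 1, CSD 2, HC 1 and HC 2, with CSD 2 the highest library. Its next class was choroid plexus cells, at 15.6 to 22.6 CPM, a log2 difference of 2.63 (SE 0.17; edgeR, adjusted p = 1.4e-18; 79.4% of all genes tested differed between the pair). The choroid plexus level was at that of free RNA, 21.02 ± 3.78 CPM. Abcc6, whose loss causes ectopic calcification, was another EC gene, at 12.97 to 26.0 CPM against at most 2.24 CPM in a library of any other tested class. It was too low elsewhere to pass the filter of the test across classes. Abcc3, an organic anion pump, was a microglial gene by the same description, at 35.7 to 54.2 CPM in microglia and at most 4.04 CPM elsewhere.

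**Figure D1:**
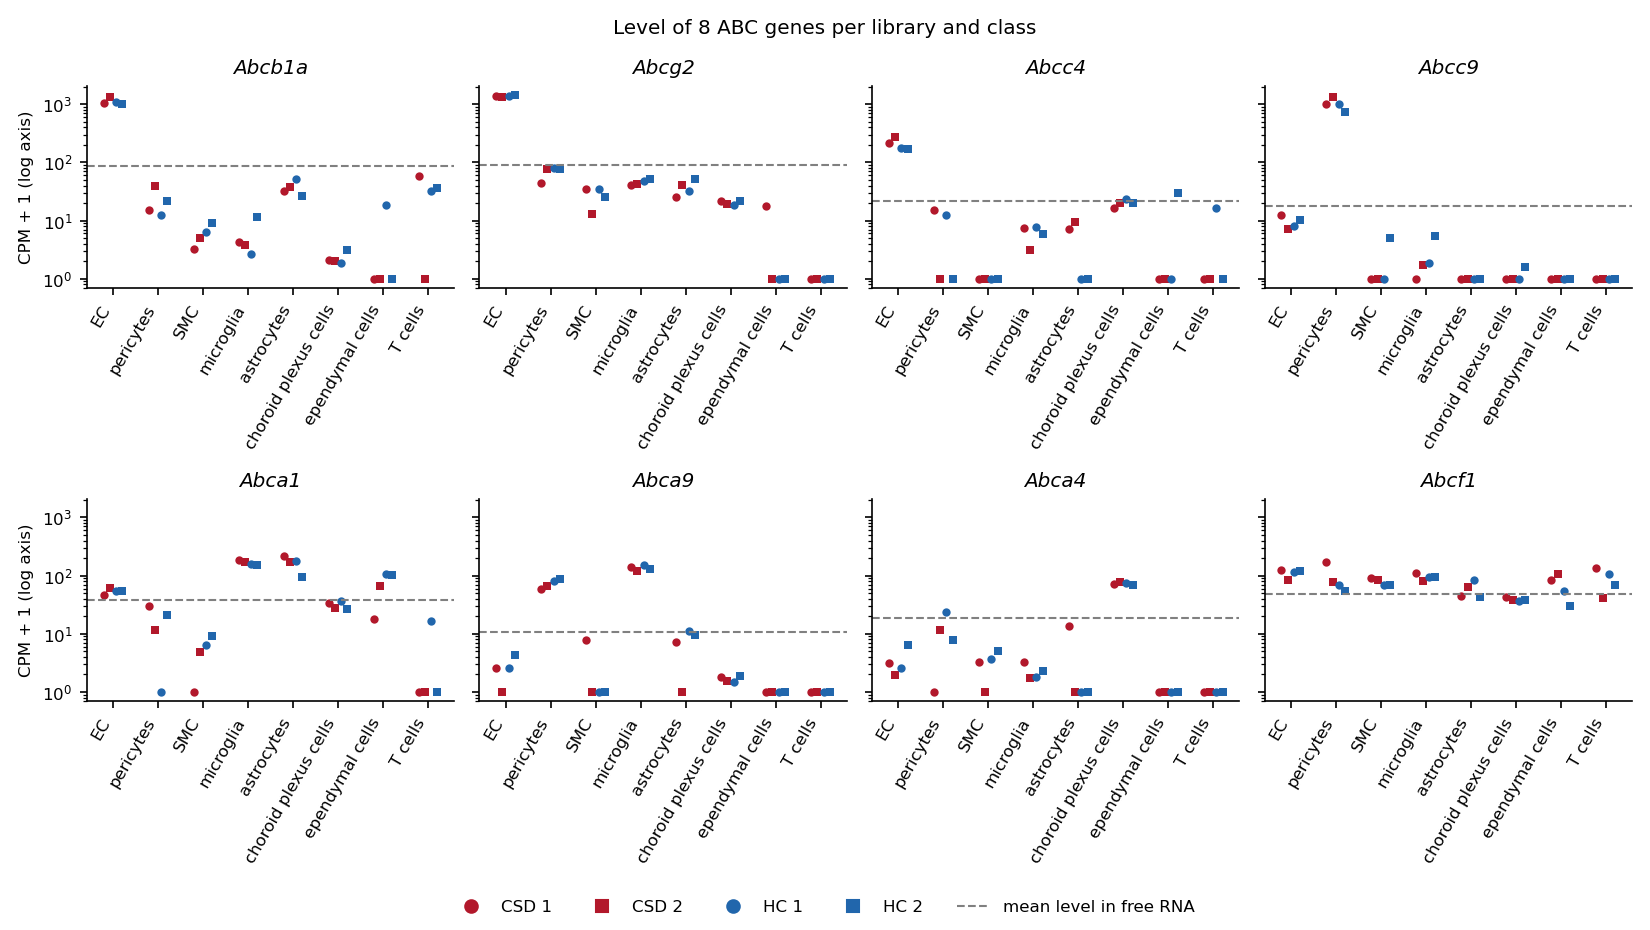
Level of 8 ABC genes in each library (circles, replicate 1; squares, replicate 2; red, CSD; blue, HC) across the 8 tested main classes, as CPM + 1 on a log axis; the dashed line is the mean level in free RNA. Abcb1a and Abcg2 stand near 1000 CPM in EC only, Abcc9 near 1000 CPM in pericytes only, and Abcf1 is spread over all classes.

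In EC, the ratio of Abcg2 to Abcb1a UMIs was 0.99 to 1.43 over the 4 libraries. In astrocytes it was 0.60 to 2.0, a range around that of EC. It lay above every EC library in microglia, at 4.75 to 27.8, and in pericytes, at 2.0 to 7.0. The same held in SMC, at 3.0 to 15.0, and in choroid plexus cells, at 10.0 to 20.1. These ratios rest on few Abcb1a UMIs: 46 in microglia, 33 in choroid plexus cells, 12 in pericytes and 6 in SMC. Microglia held Abcg2 at 39.3 to 50.6 CPM, a mean of 3.21% of the EC level, whereas their summed EC markers came to 0.38% of those in EC and their Abcb1a to 0.43%. In astrocytes the EC markers came to 1.5%, Abcg2 to 2.65% and Abcb1a to 3.23% of the EC level. All these levels were under those of free RNA (64.1 to 111 CPM for Abcg2), and the part of free RNA in them was not tested. Abcg2 had no UMI in T cells, where the count of 0 allows up to 41.0 to 56.9 CPM per library (3 counts; these limits cover counting error only).

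Abcc9, the regulatory subunit SUR2 of a potassium channel, was the pericyte gene. It was at 1007 CPM in CSD 1, 1350 in CSD 2, 996 in HC 1 and 733 in HC 2, and made up 50.7% to 62.9% of the ABC UMIs of pericytes. Its next class, EC, had 6.26 to 11.4 CPM, under the free RNA mean of 16.6 CPM. The log2 difference between the pair was 6.74 (SE 0.27; edgeR, adjusted p = 2.2e-23). In EC, Abcc9 stood at 0.89% of its pericyte level and the summed pericyte markers at 2.09%. SMC, which share the vessel wall with pericytes, had Abcc9 UMIs in 1 library only, HC 2, at 4.04 CPM. Abcc9 also ranked above the mean of the other classes in EC (log2 difference 3.03, SE 0.94; edgeR, adjusted p = 0.0068), but that value was set by classes at or near 0. Kcnj8, the pore subunit that Abcc9 regulates, was at 1151, 1431, 1019 and 1194 CPM in the pericytes of CSD 1, CSD 2, HC 1 and HC 2 and at a mean of 6.06 CPM in EC. Abcc8, the other sulfonylurea receptor, had at most 0.54 CPM in any tested main class, and the other pore gene, Kcnj11, had no UMI in pericytes.

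Of the 6 tested genes grouped under sterol and phospholipid transport, 4 were higher in choroid plexus cells than the mean of the other classes. These included Abca4, Abca2 and Abca5, described below, so the count is not one of cholesterol exporters. In astrocytes 3 were higher, in EC and microglia 2 each and in SMC 1. Lower were 2 each in microglia and SMC, and 1 each in EC, astrocytes, pericytes and T cells. The shares of all genes in each class are given with the whole family below, and the higher counts in EC and microglia did not exceed them. Abca1, the pump that loads cholesterol onto apolipoproteins, was at 183, 168, 159 and 148 CPM in the microglia of CSD 1, CSD 2, HC 1 and HC 2. In astrocytes it was at 217, 167, 176 and 93.2 CPM, so that the 2 classes overlapped. Their log2 difference was 0.31 (SE 0.20; edgeR, adjusted p = 0.17). Abca1 was higher in microglia than in EC, where it had 44.9 to 59.7 CPM (log2 difference of EC minus microglia -2.00, SE 0.16; edgeR, adjusted p = 3.1e-16; 65.9% of all genes tested differed). Choroid plexus cells had 25.4 to 35.1 CPM, below every EC library. EC minus choroid plexus cells was 0.04 on the TMM scale (SE 0.16; edgeR, adjusted p = 0.82) and 0.84 with library totals only (SE 0.17; edgeR, adjusted p = 1.1e-05), so the call turned on the scaling. Ependymal cells ranged from 16.7 to 106 CPM around EC, and EC minus ependymal cells was -0.19 (SE 0.40; edgeR, adjusted p = 0.73). Pericytes, SMC, T cells and choroid plexus cells were under the free RNA level of their own library (mean 37.7 CPM) in every library. Abcg1, a partner of Abca1 in cholesterol export, was at 60.8 to 82.3 CPM in microglia, and exceeded T cells, the next class, by 1.31 on the log2 scale (SE 0.47; edgeR, adjusted p = 0.024). With library totals only this was 0.92 and no longer called (edgeR, adjusted p = 0.17). The T cell values rest on 9 UMIs and ranged from 13.7 to 91.7 CPM, with HC 1 above every microglial library. The few oligodendrocytes, not tested, had a mean of 120 CPM.

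Choroid plexus cells were led by Abca4, known as the retinoid lipid flippase of photoreceptors. It was at 69.8, 77.9, 74.0 and 69.2 CPM in CSD 1, CSD 2, HC 1 and HC 2, against 17.9 ± 8.88 CPM in free RNA. Pericytes came next, at 0 to 22.6 CPM, with a log2 difference of 3.71 (SE 0.46; edgeR, adjusted p = 3.3e-09; 57.4% of all genes tested differed between the pair). Of all Abca4 UMIs in assigned cells, 97.5% were in choroid plexus cells. This class also held more UMIs of all genes than any other class in CSD 1, HC 1 and HC 2. In HC 2 it had 8194616 against 1814725 in EC, so this share is not comparable to that of Abcb1a in EC. Abca2, an endolysosomal lipid transporter, was highest there as well among the tested main classes, at 56.8 to 70.1 CPM, 1.17 above astrocytes on the log2 scale (SE 0.25; edgeR, adjusted p = 7.9e-05). With library totals only the difference was 0.40 and not called (edgeR, adjusted p = 0.19), and the few oligodendrocytes, not tested, had a mean of 392 CPM. Abca5 was at 40.1 ± 3.48 CPM in choroid plexus cells and 59.5 ± 34.8 in astrocytes, where CSD 1 at 112 CPM stood above the other libraries (41.3 to 42.5 CPM). The direction turned on the scaling: choroid plexus cells minus astrocytes was 0.18 on the TMM scale (SE 0.29; edgeR, adjusted p = 0.62) and -0.58 with library totals only (SE 0.30; edgeR, adjusted p = 0.091), and neither was called.

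The Abca6-like group is a cluster on chromosome 11 whose substrates are poorly known. Abca5 lies beside Abca6 on the same strand but was counted above with the sterol and phospholipid genes. It was not called higher in pericytes, where it had 22.9 ± 25.8 CPM. Without Abca5, the group had 2 tested members, Abca8a and Abca9. Both were higher in pericytes than the mean of the other classes, with 1 higher in microglia (Abca9) and 1 in astrocytes (Abca8a). The shares of all genes higher in these classes are given with the whole family below, and 2 genes are too few to compare with them. Fibroblasts, too few to test, had higher means of both genes than pericytes, 164 CPM for Abca8a and 192 CPM for Abca9. Abca9 was at 141, 120, 152 and 131 CPM in the microglia of CSD 1, CSD 2, HC 1 and HC 2. In pericytes it was at 57.6, 65.1, 79.2 and 88.2 CPM, below every microglial library, with a log2 difference of 1.37 (SE 0.27; edgeR, adjusted p = 2.4e-05; 49.6% of all genes tested differed between the pair). EC held 1.64 CPM on average and free RNA 9.80 CPM. Of the tested main classes, its neighbour Abca8a was highest in pericytes at 57.6 to 114 CPM, 1.53 above astrocytes on the log2 scale (SE 0.50; edgeR, adjusted p = 0.016), although astrocytes ranged from 0 to 67.8 CPM. Abca8b, a paralog of Abca8a, stood at 15.8 CPM in pericytes, and the uncertainty of shared reads applies to both.

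Among the peroxisomal genes, Abcd3 was highest in astrocytes, at 130, 73.7, 124 and 127 CPM in CSD 1, CSD 2, HC 1 and HC 2. Ependymal cells followed at 42.9 to 124 CPM and were not separated from them (log2 difference 0.61, SE 0.34; edgeR, adjusted p = 0.19). Abcd2, a very-long-chain fatty acid importer, was at 47.0 to 66.9 CPM in microglia, 0.96 above astrocytes on the log2 scale (SE 0.33; edgeR, adjusted p = 0.011), and 0.59 above them with library totals only, no longer called (edgeR, adjusted p = 0.13). Abcc5, an organic anion pump, was highest in astrocytes of the tested main classes at 67.8 to 155 CPM, 2.05 above ependymal cells on the log2 scale (SE 0.51; edgeR, adjusted p = 0.0014). Neurons, too few to test, had a mean of 240 CPM on 8 UMIs. The translation factor Abcf1 had the flattest profile of the abundant members. EC (110 ± 17.8 CPM) and microglia (94.2 ± 12.5 CPM) were not separated. EC minus microglia was -0.15 on the TMM scale (SE 0.13, edgeR, adjusted p = 0.32) and 0.23 with library totals only (edgeR, adjusted p = 0.13). Choroid plexus cells were lowest by CPM, at 38.0 ± 2.50, and their rank on the TMM scale is not given. Abce1, the ribosome recycling factor, was highest in T cells at 54.6 to 69.2 CPM, not separated from microglia (log2 difference 0.54, SE 0.36; edgeR, adjusted p = 0.32).

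**Figure D2:**
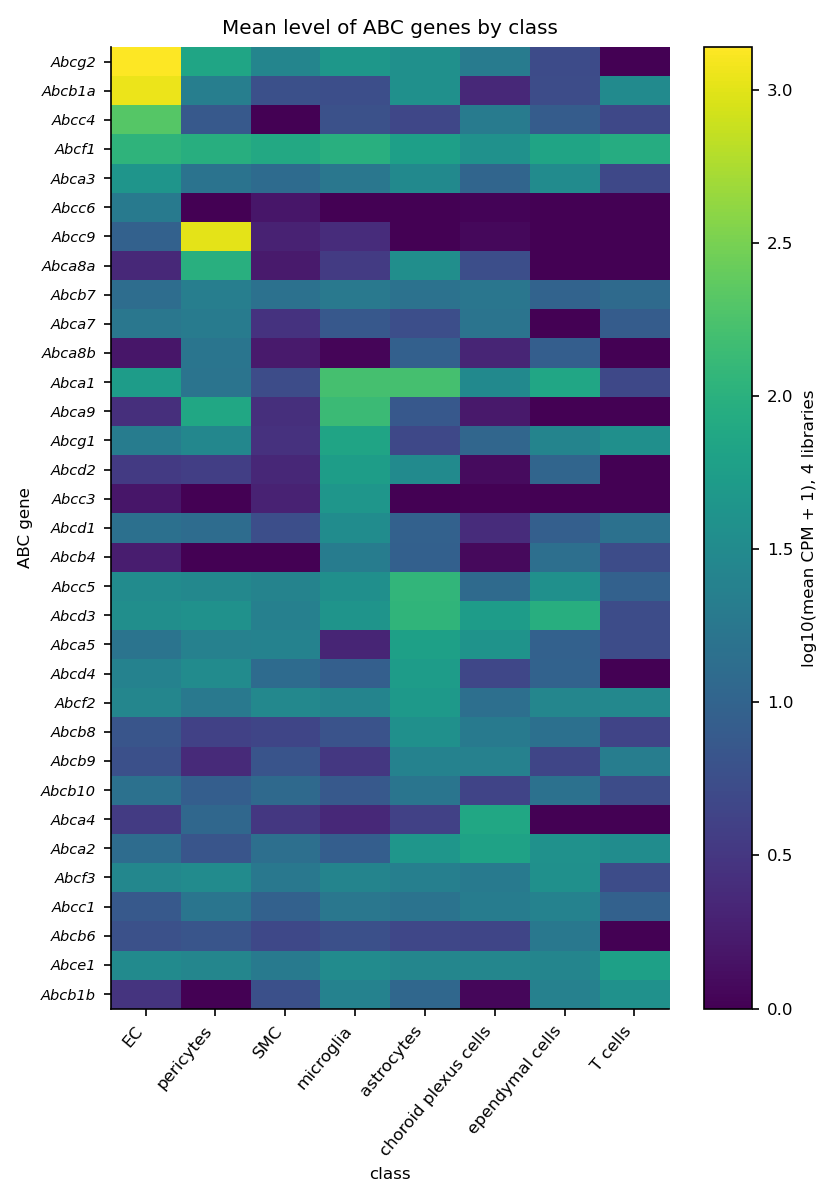
Mean level over 4 libraries, as log10(CPM + 1), of the 33 ABC genes that reached 10 CPM in at least 1 of the 8 tested main classes (columns), ordered by the class in which each is highest. Bright cells for Abcg2 and Abcb1a in EC and for Abcc9 in pericytes stand out; the next brightest cell is Abcc4 in EC, at 206 CPM.

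Over the whole family, 19 members passed the filter of the test across classes; this filter favours genes that are high somewhere, so the counts describe these 19 and not the family. Against the mean of the other classes, 8 of 19 were higher in EC, where 33.8% of all genes tested were, and 1 was lower (13.5% of all genes). In microglia 9 were higher (41% of all genes) and 3 lower (17.9%), and in choroid plexus cells 7 were higher (38.7%) and 3 lower (22.4%). Astrocytes had 10 of 19 higher against 23.9% of all genes, and 1 lower against 11.2%. The other classes had fewer members called higher, with 5 in pericytes (18%), 1 in SMC (23.8%), 1 in ependymal cells (17.4%) and 0 in T cells (11.8%); lower were 1 (9.82%), 4 (13.8%), 0 (13%) and 5 (19%). The median log2 difference of the members was 0.95 in astrocytes, 0.47 in microglia and 0.25 in EC, against 0.13, 0.18 and 0.15 for all genes tested. It was 0.15 in pericytes, 0.03 in choroid plexus cells, -0.38 in ependymal cells, -0.52 in SMC and -2.47 in T cells. All genes tested had 0.02, 0.06, -0.25, -0.01 and -0.65 in those classes. With library totals only the split into higher and lower changed most in choroid plexus cells, to 5 higher and 6 lower. In T cells it changed to 1 higher and 3 lower. The shares of all genes with that scaling are not given, so these counts are not compared with them. Members called higher could be at or under free RNA, as Abcg2 in microglia and Abcc4 in choroid plexus cells were. Of all members with a UMI, those above free RNA in every library were 19 of 40 in EC, 18 of 40 in microglia and 11 of 41 in choroid plexus cells. They were 10 of 34 in astrocytes, 7 of 30 in pericytes, 2 of 34 in SMC, 2 of 28 in ependymal cells and 3 of 22 in T cells. A gene with no UMI in a library of the class fails this rule, which is more likely where a class holds few UMIs. No share of all genes is given beside these counts, so they do not rank the classes.

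Within EC, the question was whether the pumps follow the vessel. Capillary EC (683 to 1402 cells per library) were compared with arterial EC (19 to 42 cells per library), each defined by zone markers. Abcg2 was at 1597, 1390, 1545 and 1535 CPM in the capillary EC of CSD 1, CSD 2, HC 1 and HC 2, and at 630.1, 599, 704 and 901 CPM in their arterial EC. All 4 arterial libraries lay below all 4 capillary libraries. Abcg2 was lower in arterial EC by a log2 difference of -1.18 (SE 0.15; edgeR, adjusted p = 1.5e-12), and 4.07% of all genes tested were lower there. The median of all genes in this comparison was -0.16.

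Abcb1a was at 1108, 1380, 1204 and 1055 CPM in capillary EC and at 730, 688, 671 and 559 CPM in arterial EC, in the same order of libraries. These groups did not overlap either, with a log2 difference of -0.92 (SE 0.16; edgeR, adjusted p = 2.8e-07). Without CSD 2 the differences were -1.11 for Abcg2 and -0.83 for Abcb1a, and both were still called. The 2 zones carried the EC markers alike, at 21722 to 25371 CPM in capillary and 19052 to 24876 CPM in arterial EC. The pericyte markers summed to 311 to 540 CPM in capillary EC and to 180 to 1926 CPM in arterial EC. SMC markers summed to 118 to 266 and 120 to 746 CPM, and astrocyte markers to 408 to 818 and 285 to 1197 CPM, in the same order. Choroid plexus markers reached less in arterial EC, at 120 to 587 and 120 to 365 CPM. The part of these other cells in the difference was not tested.

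No other of the 16 members tested between the zones was called. Abcc4 was at 205 ± 45.3 CPM in capillary EC and 262 ± 155 in arterial EC, with overlapping libraries (log2 difference 0.16, SE 0.24; edgeR, adjusted p = 0.85). Abca1 was at 48.6 ± 8.44 and 73.4 ± 56.3 CPM (log2 difference 0.69, SE 0.42; edgeR, adjusted p = 0.45). Abcg1 had no UMI in arterial EC, where a count of 0 over the 4 libraries together allows up to 13.8 CPM (3 counts), against 21.5 CPM over the capillary EC. It was thus at least 1.56-fold lower by counting alone, but the test over libraries did not pass the correction (edgeR, unadjusted p = 0.0055, adjusted p = 0.068). Venous EC had 8 to 14 cells per library and were not tested. Their Abcg2 was at 897 and 812 CPM in CSD 1 and CSD 2, on 6 and 11 UMIs. In HC 1 and HC 2 it was at 2039 and 1862 CPM, on 28 and 21 UMIs, so both CSD libraries were lower. Their Abcb1a was at 1644, 664, 1019 and 709 CPM in the same order, with HC inside the range of CSD. The venous ranges of both genes overlapped those of capillary and arterial EC.

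**Figure D3:**
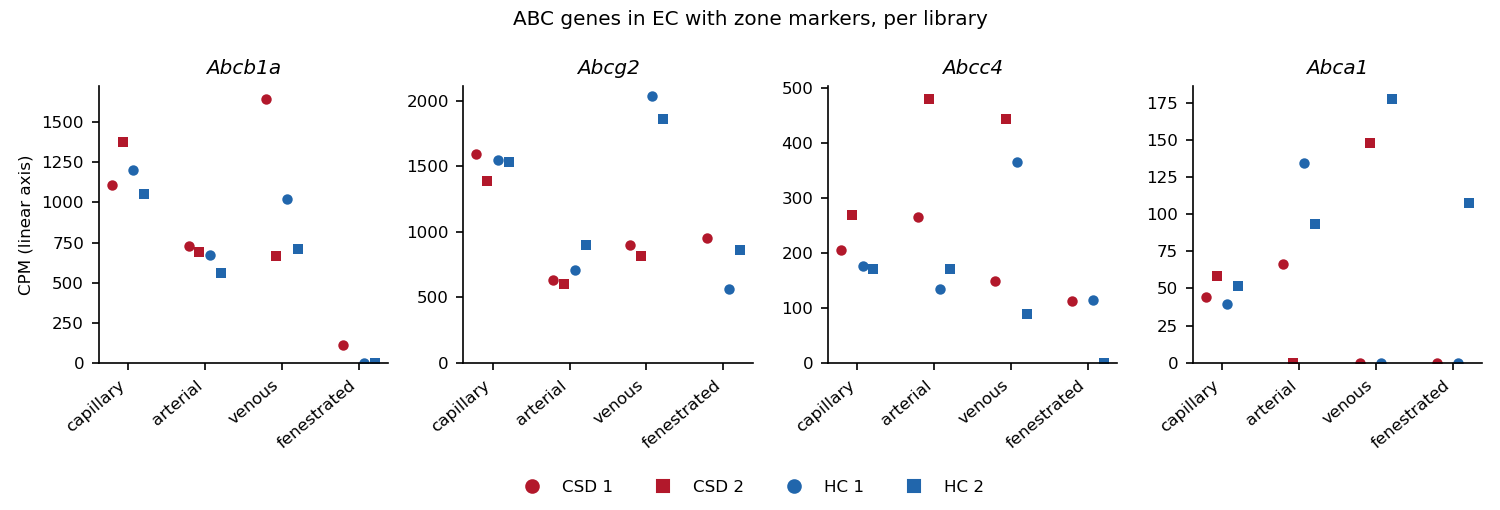
Level of Abcb1a, Abcg2, Abcc4 and Abca1 in each library (circles, replicate 1; squares, replicate 2; red, CSD; blue, HC) by EC zone, as CPM on linear axes that start at 0 and differ between panels. Abcb1a and Abcg2 are lower in arterial than in capillary EC in all 4 libraries; venous and fenestrated EC rest on at most 14 cells per library, and fenestrated EC had none in CSD 2.

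The comparison the study was built for is CSD against HC within each class. No ABC gene passed the test in any class. In EC, 23 members were tested and 0 were called at an adjusted p under 0.05 by edgeR, where 0.0706% of all genes were called (7 of 9917); DESeq2 called 0 as well. At an unadjusted p under 0.05 there was 1 member, Abcc4, and 8.01% of all genes tested in EC. The median log2 fold change of the 23 members was 0.02 against -0.01 for all genes. In microglia 0 of 25 members were called and 0 reached an unadjusted p under 0.05 (0% and 1.28% of all genes), and in choroid plexus cells 0 of 25 and 0 (0.231% and 3.43%), with DESeq2 at 0 in both.

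Abcc4 was the member that stood furthest apart in EC. Its 2 CSD libraries, at 212 and 269 CPM, were both above the 2 HC libraries, at 172 and 170.3 CPM. The fold change was 0.54 on the log2 scale (SE 0.16; edgeR, unadjusted p = 0.0093, adjusted p = 0.40), so it did not pass the correction. In EC, 4 of 23 members had both CSD libraries above both HC libraries and 2 both below, as had 18.7% and 20.3% of all genes. In capillary EC, which are most of the same cells, it was at 205 and 269 against 176 and 170.0 CPM (log2 fold change 0.50, SE 0.17; edgeR, adjusted p = 0.31; 0.469% of all genes called). Arterial EC, also part of the EC, had 265 and 479 CPM in CSD and 134 and 171 CPM in HC (log2 fold change 1.19, SE 0.46; edgeR, adjusted p = 0.99; 0.0916% of all genes called). The size of the difference turned on the CSD library. In capillary EC the log2 fold change of Abcc4 was 0.67 without CSD 1 and 0.31 without CSD 2. Each of these fits leaves 1 CSD library, so the spread came from the HC libraries and the lone CSD library was assumed to vary like them. CSD 2, the lone CSD library of the fit with the larger value, is the one with the low share of UMIs in cells.

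The main pumps showed little difference in EC as a whole. The untested venous EC, where Abcg2 was lower in both CSD libraries on few UMIs, are given above. Abcg2 in EC had 1360 ± 37.9 CPM in CSD and 1393 ± 46.4 CPM in HC, and a log2 fold change of 0.02 (SE 0.14; edgeR, adjusted p = 0.99). Abcb1a in EC had 1196 ± 208 CPM in CSD and 1051 ± 72.6 CPM in HC, with CSD 1 inside the range of HC (log2 fold change 0.24, SE 0.17; edgeR, adjusted p = 0.77). Over the processing alternatives, fits that leave out a library included, this fold change ranged from 0.09 to 0.40. In arterial EC, Abcb1a had both CSD libraries above HC (0.22, SE 0.29) and Abcg2 both below (-0.38, SE 0.29), each with an adjusted p of 0.99 by edgeR. Whether these genes differ in their response was not tested, and the shares of all genes are given below.

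Of the genes that lead other classes, Abcc9 in pericytes had both CSD libraries above HC, although CSD 1 at 1007 CPM and HC 1 at 996 CPM nearly met (log2 fold change 0.52, SE 0.30; edgeR, adjusted p = 0.94; 0.0444% of all genes called and 17.3% with both CSD libraries higher). Over the processing alternatives, fits that leave out a library included, the Abcc9 fold change ranged from 0.31 to 0.71. Kcnj8, the channel partner of Abcc9, had a log2 fold change of 0.28 in the same cells (SE 0.30; edgeR, adjusted p = 0.94). Abca1 in microglia had 183 and 168 CPM in CSD against 159 and 148 CPM in HC (log2 fold change 0.23, SE 0.23; edgeR, adjusted p = 0.9999). Abca4 in choroid plexus cells had a log2 fold change of 0.02 (SE 0.17; edgeR, adjusted p = 0.999), and Abca1 in astrocytes 0.49 (SE 0.48; edgeR, adjusted p = 0.9998), with overlapping libraries in both. Pericytes and SMC had 2 members that passed the filter on low counts, astrocytes and arterial EC 3, capillary EC 21, and ependymal and T cells none, so most of the family could not be tested in the small classes. At an unadjusted p under 0.05 there were 0 members in pericytes (4.13% of all genes), SMC (2.54%) and astrocytes (2.01%), and 1, Abcc4, in capillary EC (8.75%) and in arterial EC (4.4%). Of all genes, 3.53% reached it in ependymal cells and 7.42% in T cells. In capillary EC, 2 of 21 members had both CSD libraries above HC and 2 both below (19.1% and 19.6% of all genes), and in arterial EC 2 of 3 and 1 of 3 (16.8% each).

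**Figure D4:**
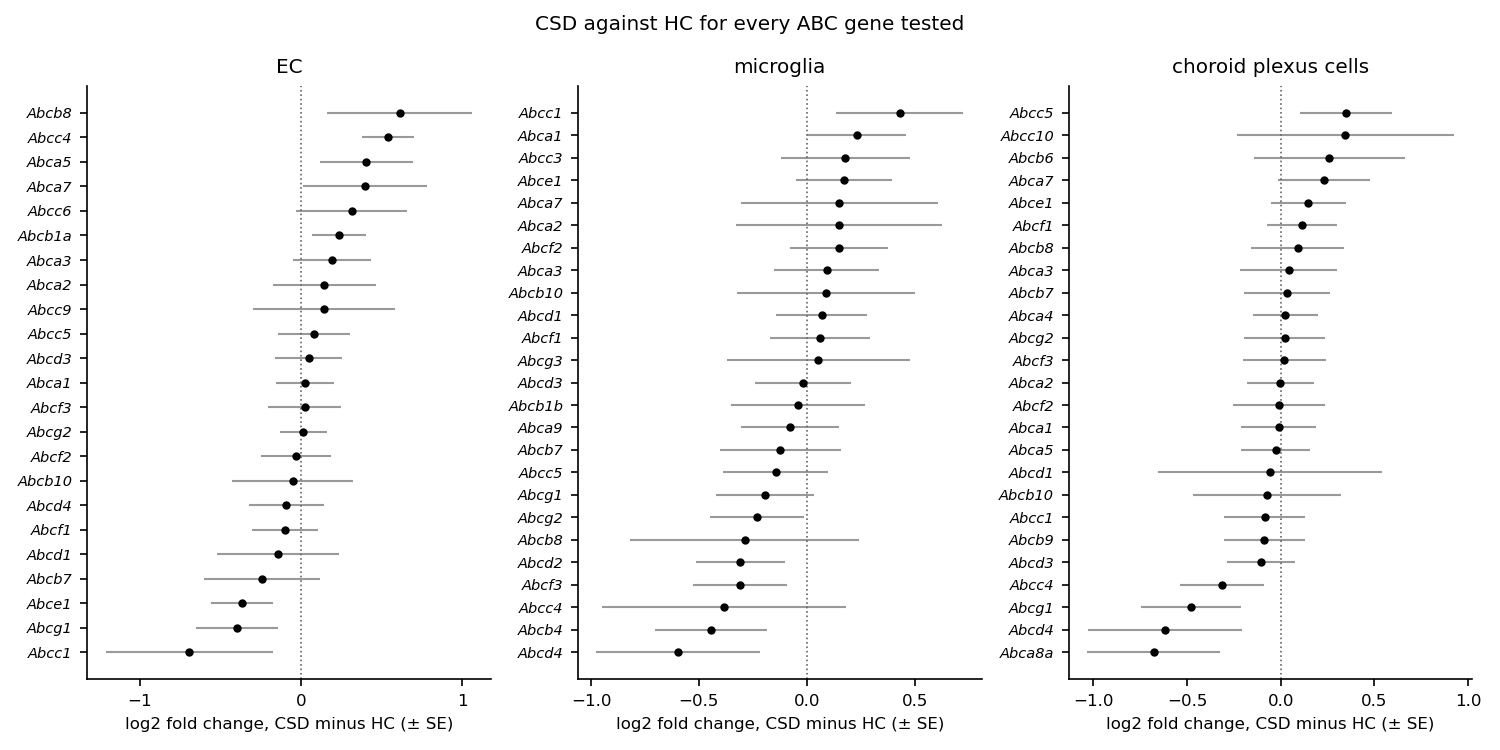
Log2 fold change, CSD minus HC, with its SE (edgeR; 2 libraries per condition) for every ABC gene tested in EC, microglia and choroid plexus cells, each panel with its own axis. Abcc4 in EC, at 0.54, is the point furthest from 0 relative to its SE; no gene in these panels passed an adjusted p of 0.05.

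A difference of the CSD effect between classes was tested directly. For 23 members, the effect in each other main class was compared with that in EC, and 0 were called in any class by edgeR. Where a gene had no UMI in a class, as Abcc4 in SMC and Abcg2 in T cells, the comparison could not have given a call. The smallest adjusted p was 0.95, in choroid plexus cells. At an unadjusted p under 0.05 there were 2 members in ependymal cells, 1 each in SMC, astrocytes, choroid plexus cells and microglia, and 0 in pericytes and T cells. The 2 in ependymal cells, Abcg1 and Abcb1b, had 6 UMIs each in that class. Of all genes tested, 3.47% reached that in ependymal cells, 2.46% in SMC, 4.45% in astrocytes, 3.34% in choroid plexus cells, 3.3% in microglia, 2.5% in pericytes and 3.62% in T cells. Between 0% and 0.0766% of all genes were called in these comparisons.

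Genes that work with the transporters were read from lists. Among 6 lists, of ABC proteins named otherwise, potassium channel pores, nuclear receptors and other regulators, lipid acceptors, uptake carriers and membrane anchors, 0 genes rose or fell with CSD by edgeR in any class. An unadjusted p under 0.05 was reached in 4 of 189 tests of a gene in a class, where between 1.28% and 8.75% of all genes in a class reached it: Slco1c1 in microglia, Slco1a4 in astrocytes, Rxra in EC and Nr1h3 in pericytes. The levels of these 4 genes in those classes are not given, and the part of free RNA in them was not tested. The regulators were the best covered, with 11 of 15 tested in EC and 12 of 15 in choroid plexus cells. Their medians were -0.08 and 0.01 on the log2 scale. The lipid acceptors had 10 of 11 tested in EC, with a median of 0.14, and 9 of 11 in microglia, with a median of -0.19. Some medians further from 0 rested on few genes. They included -0.64 for 4 of 6 uptake carriers in microglia and -0.41 for 3 of 15 regulators in pericytes. In EC, 1 of 2 potassium channel pores was tested, at 0.86. Tap1 and Tap2, the ABC proteins that feed peptides to MHC class I, had their highest means in T cells, at 91.7 to 138 CPM for Tap1, 3.06 above the mean of the other classes on the log2 scale (SE 0.39; edgeR, adjusted p = 8.9e-09).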

How the data were processed

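Single-cell RNA sequencing was analysed from 4 libraries (CSD 1, CSD 2, HC 1, HC 2). The authors deposited, for each library, a matrix of UMI counts per gene and barcode, without cell calling or normalization. The submitters' processing notes name Cell Ranger 4.0 and GRCm38 (mm10), the methods name version 6.0 and the matrix header names 3.1.0. The members and gene lists were chosen with earlier results of these data known.

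Barcodes with at least 500 UMIs, at least 250 genes and at most 25% mitochondrial UMIs were kept as cells. The 4 libraries shared 0 to 9 barcodes per pair. A cell was assigned to a class when at least 3 of that class's markers had a UMI (2 for zones within EC) and no other class had more than 0.5 times as many. Of 14415 cells, 1635 were mixed and 565 had too few markers. This gate also served against doublets: Scrublet marked 123 cells, but 4 of 4079 in CSD 1, where it did not work.

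Counts were summed per library and class, and classes with at least 10 cells in every library were tested with edgeR 4.0.16 (R 4.3.3): filterByExpr, TMM and the quasi-likelihood test, two-sided, with Benjamini-Hochberg adjustment over all genes tested and a threshold of 0.05. CSD was compared with HC without a block. Class, zone and interaction tests had library as a block. The SE is the log2 fold change over the square root of F. In class comparisons the median of all genes is not 0, and library totals without a scaling factor were an alternative chosen after seeing the data. The fits were tested on simulated data. DESeq2 1.42.0, another size factor, other cell filters and leaving out each library were alternatives. Genes were named by a rule: Abcb1a, Abcg2, Abcc9 and Abca1, the 5 highest members of a class, up to 5 members most above the other classes, and members past either p threshold; others named here were singled out after their values were seen. Promoters matched 38 of 50 members. CPM, SD and ranges were computed with Python 3.11.15.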

Additional observations from a re-analysis of the deposited data

How the results depend on the processing

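With 2 libraries per condition, only large effects of CSD could pass the test, and the absence of a call does not show that levels were equal. All comparisons of CSD with HC that kept every library had 0 members called. A fit that leaves out a library has 1 library in a condition, so its calls of CSD against HC are not counted. Leaving out libraries gave, for members higher, 0 to 1 in SMC, T cells and ependymal cells, 6 to 11 in astrocytes and 3 to 5 in pericytes, and for members lower, 0 to 1 in EC and astrocytes, 1 to 4 in SMC, 2 to 5 in T cells and 0 to 2 in choroid plexus cells and pericytes; astrocytes had 6 higher without CSD 2, and fewer libraries is part of that setting. Without the filter on low counts more genes were tested. Members higher then came to 13 in EC, 17 in microglia, 16 in choroid plexus cells and 1 in T cells. Members lower came to 2 in EC, 1 in ependymal cells and 3 in T cells. The shares of all genes called are not given for the alternatives in this section. Their counts show how the calls moved with the setting and are not results about the family. With RLE size factors, 2 were higher in ependymal cells and 1 in T cells; the cause was not tested. With library totals only, an alternative chosen after seeing the data and run for classes and zones, 2 were higher in ependymal cells and 1 in T cells, and 6 were lower in choroid plexus cells and 3 in T cells; the 2 zone calls held.

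Values that changed sign had not been called. They were, with RLE, Abca2 in choroid plexus cells (0.0015 on the log2 scale for CSD minus HC, as in all that follow unless said otherwise) and with DESeq2 the same gene (0.0065). With at least 1000 UMIs per cell it was Abca1 in EC (-0.17), and with at most 10% mitochondrial UMIs Abca1 in choroid plexus cells (0.19). A complexity of at least 0.8 turned Abcg2 (-0.0331) and Abca5 (0.0296) in choroid plexus cells. The stricter gate turned Abca1 in EC (-0.00264), Abca1 (0.24) and Abcd3 (0.11) in choroid plexus cells and Abcc5 in astrocytes (-0.12). Without the filter, Abcc4 in arterial minus capillary EC became -0.034. Leaving out libraries gave -0.16 to 0.21 for Abca1, -0.34 to 0.56 for Abcc9, -0.41 to 0.19 for Abcf1 and -0.0205 to 0.0824 for Abcg2 in EC; -0.774 to 0.0624 for Abcc9, -0.567 to 0.0213 for Abcf1 and -0.12 to 0.12 for Abcg2 in capillary EC; -0.10 to 0.21 for Abcf1 in microglia; -0.18 to 0.12 for Abca8a in pericytes; -0.51 to 0.11 for Abcg2 in SMC; -0.34 to 0.75 for Abcc5 and -0.828 to 0.0687 for Abcd3 in astrocytes; and, in choroid plexus cells, -0.21 to 0.22 for Abca1, -0.17 to 0.20 for Abca2, -0.0764 to 0.145 for Abca4, -0.178 to 0.0654 for Abca5, -0.384 to 0.0621 for Abcd3 and -0.11 to 0.17 for Abcg2. For Abcc4 in arterial minus capillary EC the range was -0.00267 to 0.324.

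The replicate block, which pairs CSD 1 with HC 1 and CSD 2 with HC 2, left 0 members called in every class and turned Abcg2 in capillary EC to -0.00417. Same-numbered libraries deviated together with a correlation of 0.06 in EC and 0.41 in microglia, and nothing in the labels says that a number marks a shared batch. At least 1000 UMIs, at most 10% mitochondrial UMIs and the stricter gate left under 10 cells of a class in a library, so the tests across classes and of the interaction could not be fitted there, nor, for the stricter gate, that of the zones.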

Other observations

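Classes with fewer than 10 cells in a library were not tested, and their values rest on few UMIs. Border-associated macrophages (40, 5, 49 and 9 cells in CSD 1, CSD 2, HC 1 and HC 2) were led by Abca1 at 250.1, 165, 380 and 285 CPM and by Abca9 at 167, 110, 129 and 143 CPM, the genes that also led microglia. Abcb1b, the second P-glycoprotein gene, was at 59.6, 110, 30.4 and 143 CPM in these macrophages, on 13 UMIs in all. Fibroblasts (10, 9, 7 and 25 cells) held Abca9, Abca1 and Abca8a at means of 192, 174 and 164 CPM, and all 3 had a UMI in every library. Oligodendrocytes (7, 12, 2 and 4 cells) were led by Abca2, a transporter long linked to myelin lipids, at 506, 530.1, 446 and 87.5 CPM.

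Fenestrated EC (9, 0, 3 and 6 cells) had Abcg2 at 949, 567 and 861 CPM in CSD 1, HC 1 and HC 2, while Abcb1a had UMIs in CSD 1 only. These EC lack the barrier, and their EC markers summed to at most 14569 CPM, under the other zones; with 30 Abcg2 UMIs no comparison was made.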
